A study of Mus musculus with 21 samples.

Results

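Transcripts of 9 neuropeptide precursor genes of cortical neurons (Sst, Npy, Cck, Tac1, Pdyn, Cort, Nts, Pnoc and Grp) were examined in primary mouse neurons. The members were found by their symbols among the 22040 genes that the 4 tables of the series list between them. All 9 were listed in at least 1 table, and 8 were listed in all 4, along with 19399 genes in all. Nts was listed only in the tables of Tau and of WT neurons.

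Neurons were cultured from the cortex of newborn pups, either wildtype (WT) or transgenic for hTau P301S (Tau), a mutant human tau whose cDNA is driven by the prion promoter. Cultures of both genotypes received cytosine arabinoside against dividing glia. Seeding with pre-formed tau fibrils, on day 7 and with 18 days of culture after it, is described for the Tau neurons and not stated for WT, so that transgene and fibrils cannot be told apart in a contrast of Tau with WT neurons. AdipoRon, a small-molecule agonist of the adiponectin receptors, was given at 10 μM for 24 h, and control cultures received its vehicle DMSO. The labels give 10 μM as the tag of each treated sample and a concentration in mM in the protocol text. Libraries of polyadenylated RNA came from 21 cultures, with 5 each for Tau DMSO, Tau AdipoRon and WT DMSO and 6 for WT AdipoRon.

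Neuropeptides are made as long precursors, which are cut at basic residues in the secretory pathway and stored in dense-core vesicles. In the cortex most of them are made by subsets of GABAergic interneurons, while Cck and some others are also made by excitatory cells. Transcription of many of these genes is known to follow neuronal activity, calcium and cAMP, in part through the cAMP response element (CRE), to which the factor CREB binds.

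Promoters of 4 members holding the letters of a CRE or its core are shown, though that of Nts, which holds a core, is not. They were taken from RefSeq on build GRCm38.p6, from 250 bases before to 50 bases after the start site, and are written 5′ to 3′ along the gene with CRE letters in capitals.
Sst (chr16:23890795-23891094, minus strand): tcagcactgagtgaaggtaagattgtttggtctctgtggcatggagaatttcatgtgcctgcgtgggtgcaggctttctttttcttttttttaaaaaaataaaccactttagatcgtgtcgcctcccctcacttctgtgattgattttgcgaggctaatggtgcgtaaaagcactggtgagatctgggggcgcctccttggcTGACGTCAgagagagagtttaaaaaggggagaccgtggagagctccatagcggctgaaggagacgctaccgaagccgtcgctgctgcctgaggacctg
Cck (chr9:121495645-121495944, minus strand): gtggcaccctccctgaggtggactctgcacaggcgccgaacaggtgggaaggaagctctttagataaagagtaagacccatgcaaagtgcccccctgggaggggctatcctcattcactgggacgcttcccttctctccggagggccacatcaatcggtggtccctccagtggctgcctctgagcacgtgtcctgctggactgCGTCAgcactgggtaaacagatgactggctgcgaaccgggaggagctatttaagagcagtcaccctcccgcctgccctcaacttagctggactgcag
Cort (chr4:149126714-149127013, minus strand): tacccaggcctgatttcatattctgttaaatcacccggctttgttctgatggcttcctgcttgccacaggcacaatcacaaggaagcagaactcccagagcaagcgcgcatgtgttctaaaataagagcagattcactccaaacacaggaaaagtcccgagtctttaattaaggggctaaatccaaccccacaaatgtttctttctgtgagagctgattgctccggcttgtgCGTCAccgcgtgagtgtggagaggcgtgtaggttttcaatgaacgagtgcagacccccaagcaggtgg
Tac1 (chr6:7554811-7555110, plus strand): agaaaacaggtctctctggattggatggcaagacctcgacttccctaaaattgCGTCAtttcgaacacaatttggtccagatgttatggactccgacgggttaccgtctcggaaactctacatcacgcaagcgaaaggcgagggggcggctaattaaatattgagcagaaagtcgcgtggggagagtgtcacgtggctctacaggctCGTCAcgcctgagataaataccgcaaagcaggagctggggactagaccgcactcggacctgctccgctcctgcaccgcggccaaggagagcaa
Of the 9 members, 7 had a RefSeq promoter that was used, with 8 promoters between them, and none was used for Pnoc and Grp. The search of the members left out a single chromosome, and whether that is why either gene has no promoter here was not checked. Their absence does not mean that RefSeq lacks these promoters. The full CRE, TGACGTCA, was found in the promoter of Sst only, from position -48, and in 1.79% of all 32851 promoters. Its core TGACG, searched on both strands and contained in the full element, was found in 5 of the 7 members (Sst, Cck, Cort, Tac1 and Nts) and in 20.8% of all promoters. Counted from the start site, the core began at position -47 in Cck, at -18 in Cort, at -166 in Nts and at both -197 and -43 in Tac1. TGANTCA, the letters of the AP-1 element, was found in Nts and in 7.81% of all promoters. Neither element was found in Npy or in either promoter of Pdyn. These matches are descriptions of the letters in a short window.

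The values described are mean levels in log2 CPM, read counts scaled to library size, each a mean over all cultures of a table. The tables pool the cultures in 4 ways: 10 DMSO cultures of both genotypes, 11 AdipoRon cultures of both genotypes, 10 Tau cultures of both treatments and 11 WT cultures of both treatments. The WT pool holds 6 AdipoRon and 5 DMSO cultures, so treatments are not quite balanced in it. AdipoRon with DMSO and Tau with WT could therefore be compared between tables that share no culture. The pools are not independent in their animals, since the study states that cells of an animal went into each drug treatment and that genotypes were compared among littermates, and which cultures share an animal or litter is not given in the labels. How the tables were normalized is not given and may differ between them. A mean has no error of its own here, so no difference was tested and the spread between cultures is unknown. Depth per culture is unknown too. Levels are relative to library size and not to gene length, and are compared for each gene between pools, not between genes. In bulk RNA, fewer cells of a type and less RNA per cell cannot be told apart.

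The means add up as pools of these cultures should. Summed CPM over the DMSO and AdipoRon tables differed from that over the Tau and WT tables by a median of -0.0344% across 19399 genes (robust SD 0.271%), and by between -0.841% (Cck) and 0.79% (Grp) among the members. These 2 lie outside the range of -0.793% to 0.595% that holds most genes. The descriptions of some WT samples name tables that go against the tables' own names, and the pools were taken from the tables' names. All 7 neuron markers (Rbfox3, Map2, Tubb3, Snap25, Syn1, Syt1 and Stmn2) were listed in every table, with a summed level of 2956 to 3425 CPM. The 8 astrocyte markers summed to 4617 to 4941 CPM, the 8 of the oligodendrocyte lineage to 1175 to 1534 CPM and the 9 of microglia to 305 to 604 CPM, so RNA of glia was present in these cultures beside that of neurons.

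The design implies 4 contrasts, AdipoRon with DMSO within each genotype and Tau with WT within each treatment. The means give each treatment over both genotypes and each genotype over both treatments. Mean levels of 7 of the 8 members with a value were lower in AdipoRon than in DMSO cultures, and that of Pdyn was higher. Of all genes in both tables, 45.0% were lower. Pnoc, Grp, Cck and Cort were lower by a log2 difference of at least 1, which is 4 of 8 members, where 1.75% of the 19693 genes in both tables were as much lower. No member was higher by as much, and 0.675% of all genes were. The median difference of the 8 members was -1.01 on the log2 scale, against 0.02 over all genes, whose robust SD was 0.22.

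**Figure D1:**
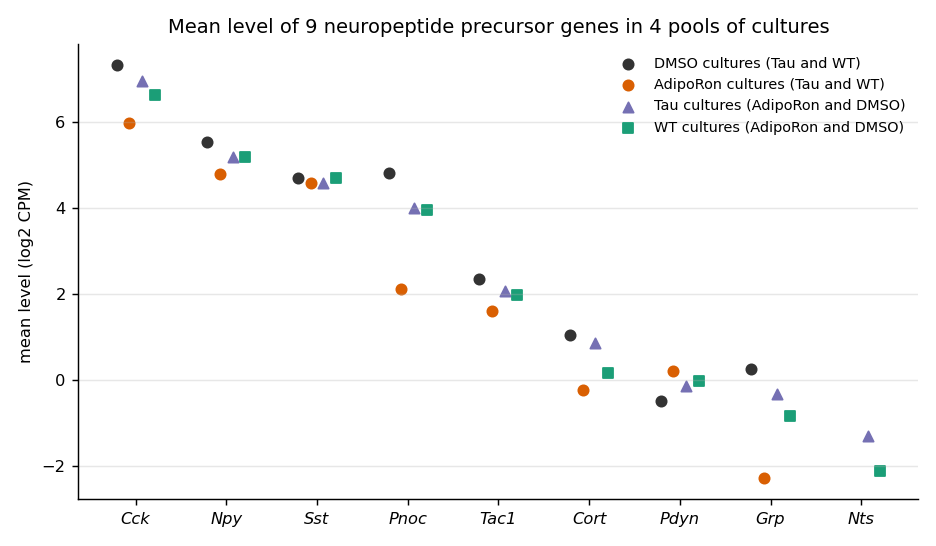
Mean level in log2 CPM (vertical axis) of the 9 genes, in order of level, in the pools of DMSO, AdipoRon, Tau and WT cultures, with 1 point per pool and no error bars because the means have none. The AdipoRon point of Pnoc stands at 2.11 and that of Grp at -2.29, well under their DMSO points at 4.81 and 0.25, whereas the points of Sst lie between 4.56 and 4.69.

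Pnoc and Pdyn, the opioid-related precursors among the members, went in opposite directions. Pnoc encodes the precursor of nociceptin, the peptide ligand of the opioid-like receptor Oprl1. Its mean level was 4.81 log2 CPM in DMSO cultures, 4.00 in Tau cultures, 3.95 in WT cultures and 2.11 in AdipoRon cultures. The AdipoRon mean was the lowest and the DMSO mean the highest, with the means of each genotype almost level between them. Each genotype pool mixes both treatments, so genotype means tend to fall between treatment means where treatments differ more than genotypes. The order of pools is therefore largely arithmetic, here and for the genes below. In linear units, 28.0 CPM with DMSO stood against 4.33 CPM with AdipoRon, a log2 difference of -2.69 or 6.46-fold, and only 20 of the 19693 genes had a lower difference. Pdyn, the precursor of dynorphins, which act on the kappa opioid receptor, had mean levels of -0.51 with DMSO, -0.14 in Tau, -0.04 in WT and 0.20 log2 CPM with AdipoRon. Its order of pools is the reverse of that of Pnoc, and its log2 difference of 0.71 (1.63-fold higher with AdipoRon) was exceeded by 355 genes. About 1 CPM underlies these means (0.704 CPM with DMSO and 1.15 CPM with AdipoRon), so Pdyn was scarce in every pool.

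Grp, which encodes gastrin-releasing peptide of the bombesin family, was nearly as much lower as Pnoc. Its mean levels were 0.25 log2 CPM with DMSO, -0.33 in Tau, -0.84 in WT and -2.29 with AdipoRon. The AdipoRon mean, 0.205 CPM against 1.19 CPM with DMSO, lies near the floor of its table, where 1.86% of genes were at or below it. The log2 difference was -2.54 (5.83-fold), and 27 genes had a lower one. The mean log2 CPM of edgeR includes a small prior count, which weighs most on genes as scarce as this.

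Cck was the most abundant member by reads in each of the 4 pools. It encodes cholecystokinin, found in a class of interneurons and in many excitatory neurons. Mean levels of Cck were 7.32 log2 CPM with DMSO, 6.95 in Tau, 6.61 in WT and 5.97 with AdipoRon, and these run in the same order of pools as those of Grp. From 159.9 CPM with DMSO to 62.5 CPM with AdipoRon the log2 difference was -1.35, which puts the AdipoRon mean at 39.1% of the DMSO mean. Cck stood above 93.4% of genes in the DMSO table or level with them, and 80.2% in the AdipoRon table.

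The somatostatin-like precursors Sst and Cort differed from each other. Both encode small cyclic peptides that bind the somatostatin receptors. Sst had mean levels of 4.69 log2 CPM with DMSO, 4.68 in WT, 4.57 in Tau and 4.56 with AdipoRon, within 0.13 of each other. At -0.13 its AdipoRon difference was smaller than the robust SD over all genes, and 4885 genes had a lower one. Cort, the precursor of cortistatin, had 1.05 log2 CPM with DMSO, 0.86 in Tau, 0.15 in WT and -0.23 with AdipoRon. The AdipoRon mean of Cort was 41.3% of its DMSO mean (log2 difference -1.28), and 192 genes had a lower difference.

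Npy and Tac1 had differences of nearly the same size. Npy encodes neuropeptide Y, an inhibitory peptide of interneurons, and Tac1 the precursor of substance P and neurokinin A. Npy had a mean of 5.51 log2 CPM with DMSO and 4.77 with AdipoRon, while its Tau and WT means were both 5.18. For Tac1 the means were 2.35 with DMSO, 2.06 in Tau, 1.96 in WT and 1.60 log2 CPM with AdipoRon. Their log2 differences with AdipoRon were -0.74 and -0.75, so each AdipoRon mean was close to 60% of the DMSO mean (59.96% and 59.6%). Nts, the precursor of neurotensin, has no AdipoRon difference here.

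**Figure D2:**
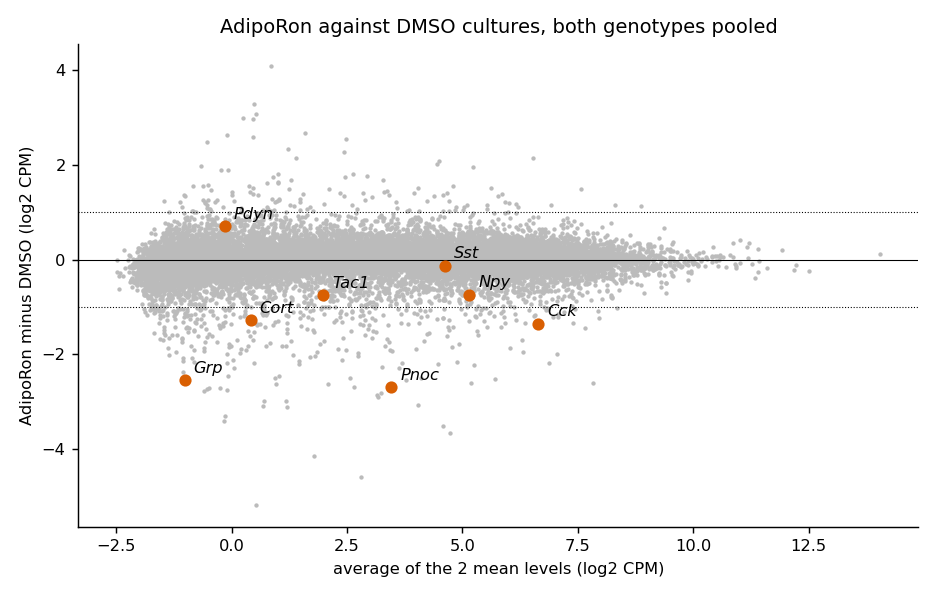
Difference between the AdipoRon and the DMSO mean (log2 CPM, vertical axis) against the average of both means (log2 CPM, horizontal axis) for 19693 genes in grey and 8 members in orange. Dotted lines mark a difference of 1 in each direction, and Pnoc (-2.69) and Grp (-2.54) lie far under the lower line while Sst lies at -0.13.

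Between Tau and WT cultures, no member of the 9 differed by a log2 difference of 1 or more. Of the 19890 genes in both tables, 0.126% were higher by as much in Tau cultures and 0.508% lower. Nts had the largest difference of the members, with -1.30 log2 CPM in Tau and -2.11 in WT cultures (0.81 higher in Tau), and was scarce in both (0.405 and 0.231 CPM), with 7.66% and 5.73% of genes at or below it. Cort was higher in Tau by 0.71, Grp by 0.51 and Cck by 0.34. For Npy the difference was -0.00044, for Pnoc 0.04 and for Tac1 0.09, and Sst and Pdyn were at -0.11 and -0.10. The median over the 9 members was 0.09 against 0.00 over all genes, whose robust SD was 0.14.

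Markers of cell types were also set side by side for the genotypes. All 9 microglia markers were lower in Tau than in WT cultures, with a median difference of -0.96 and 4 of them at -1 or under, and their summed level was 305 CPM in Tau and 604 CPM in WT cultures. All 8 markers of the oligodendrocyte lineage were lower as well (median -0.49). Neuron markers were higher in Tau cultures in 7 of 7 cases (median 0.115), and those of excitatory neurons in 9 of 12 (median 0.107). Of 21 interneuron markers, 16 were lower (median -0.053). Astrocyte markers were split, with 3 lower and 5 higher (median 0.025). The part of these cells in the Tau differences of the members was not tested.

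How far each genotype shared the AdipoRon difference can be bounded from the same means. The 4 pooled means fix the 4 group means up to a single free number, and no group mean can be under 0, so each group mean has a lowest and a highest allowed value. For Pnoc the ranges did not overlap between treatments. Tau DMSO lay between 22.4 and 31.9 CPM and Tau AdipoRon between 0 and 9.53 CPM, while WT DMSO lay between 24.0 and 34.04 CPM and WT AdipoRon between 0 and 7.94 CPM. Pnoc with AdipoRon was thus at most 42.5% of its DMSO mean for Tau and at most 33.1% for WT. Grp behaved likewise, with Tau DMSO from 1.14 to 1.59 CPM, Tau AdipoRon up to 0.45 CPM, WT DMSO from 0.775 to 1.25 CPM and WT AdipoRon up to 0.375 CPM. Its AdipoRon mean was at most 39.5% of DMSO for Tau and 48.4% for WT. These were the 2 members of 8 with a lower mean in both genotypes at every allowed value, beside 0.464% of 19399 genes. No member was higher in both genotypes at every allowed value, beside 0.119% of genes.

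For the other 6 members the means leave the response of each genotype unsettled. A limit above 100% leaves the direction within that genotype undetermined. The AdipoRon mean of Cck was at most 126% of DMSO for Tau and at most 157% for WT, and Cort had limits of 108% and 304%. For Npy the limits were 489% and 267%, and for Tac1 407% and 298%. Sst had no upper limit for Tau, since its Tau DMSO range begins at 0, and its limit for WT was 1025%. Pdyn had no upper limit for either genotype, since its DMSO ranges begin at 0 in both.

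**Figure D3:**
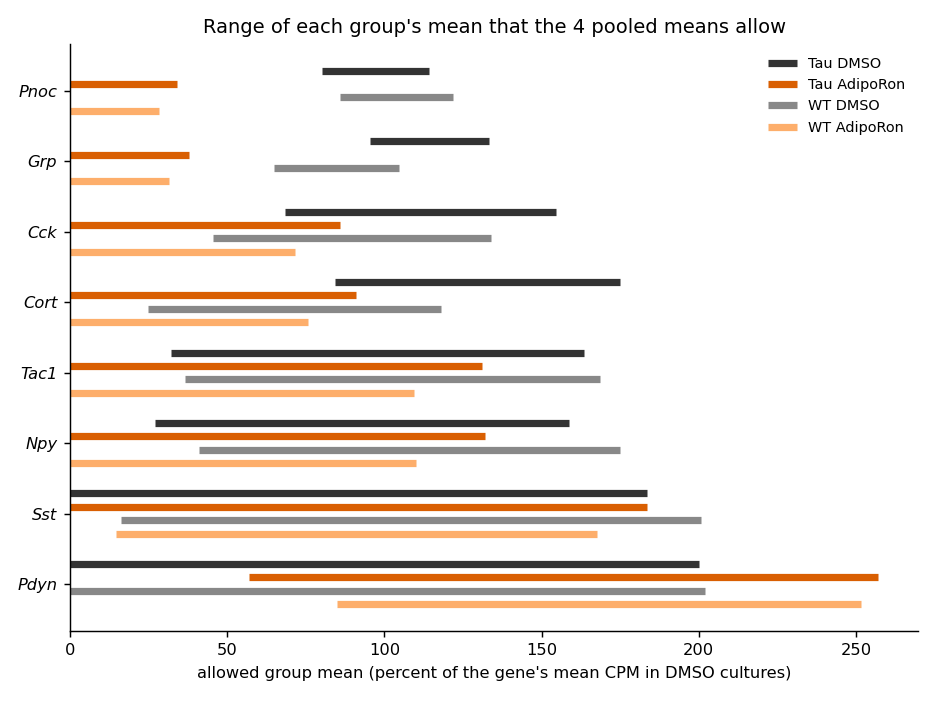
Lowest to highest mean that the 4 pooled means allow for each group (bars, horizontal axis in percent of the gene's mean CPM in DMSO cultures) for 8 members. Bars are limits set by arithmetic and not confidence intervals, and only those of Pnoc and Grp keep both AdipoRon groups below both DMSO groups.

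Receptors of these peptides were less one-sided than the peptides. Of 20 receptor genes, 18 were listed in a table and 16 had an AdipoRon difference. Of these 16, 3 were lower by at least 1 (Nmbr, Tacr3 and Cckbr), 3 were higher (Tacr1, Npy2r and Oprl1), and the median was -0.08. Cckbr, the main cholecystokinin receptor of the brain, was at -1.41, in the direction of its ligand gene Cck. Tacr3, which prefers neurokinin B, had an AdipoRon mean of 35.4% of its DMSO mean, and Nmbr, the neuromedin B receptor, at -1.95. Oprl1, the nociceptin receptor, was higher by 1.02, from 4.07 to 5.08 log2 CPM, against the direction of Pnoc. Tacr1, the substance P receptor, was higher by 1.27 against the direction of Tac1, and Npy2r by 1.11 against that of Npy. Both were scarce with DMSO (0.39 and 1.13 log2 CPM). The Npy receptors Npy1r and Npy5r, at -0.51 and -0.60, went in the direction of Npy. Of the somatostatin receptors, Sstr1 and Sstr4 were at -0.11 and -0.05, Sstr2 at -0.35 and Sstr3 at -0.73. The gastrin-releasing peptide receptor Grpr was at 0.34.

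Other neuropeptide and granin precursors had a broad spread. Of 34 in the list, which was drawn up with the results of some of its genes known, 25 had an AdipoRon difference, and 5 of these were lower by at least 1 and 1 was higher (median -0.08). Adcyap1, the precursor of PACAP, was at -4.59, Crh (corticotropin-releasing hormone) at -3.11, the granin Vgf at -2.60 and Vip (vasoactive intestinal peptide) at -2.20. In all of these 4 the AdipoRon mean was lower than DMSO in both genotypes at every allowed value. Gal, the galanin precursor, was higher by 1.25. The opioid precursor Penk was at -1.19, in the direction of Pnoc and against that of Pdyn, and Pomc was at -0.14. Among 19 genes of peptide processing and secretion, Pcsk1, the prohormone convertase that cuts many of these precursors, was at -3.07 and Cadps2, a factor of dense-core vesicle release, at -1.34. The other 17 were within 1 of 0, and the list had a median of -0.12. Pcsk2 and Cpe, which act in the same steps, were at 0.14 and 0.05.

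**Figure D4:**
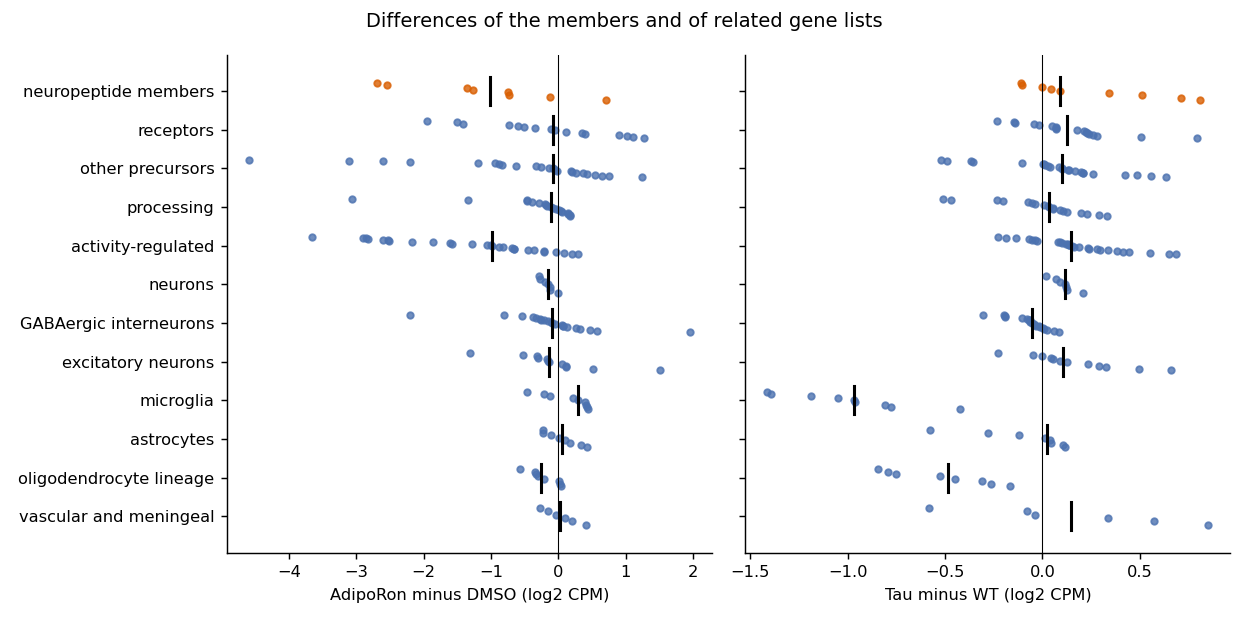
Differences (log2 CPM) between AdipoRon and DMSO cultures (left) and between Tau and WT cultures (right) for the neuropeptide members in orange and for related lists in blue, with 1 point per gene and a black bar at each median. On the left, members (median -1.01) and activity-regulated genes (median -0.99) lie lower than the other lists, and on the right microglia markers stand at a median of -0.96.

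Markers of the cells that make the peptides differed less than the peptides themselves. Of 21 genes of GABAergic interneurons, Vip was the only 1 lower by at least 1 with AdipoRon, Nos1 (neuronal nitric oxide synthase) was the only 1 higher, at 1.96, and the median was -0.10. Gad1 and Gad2, the enzymes of GABA synthesis, were at -0.28 and -0.22, the vesicular GABA transporter Slc32a1 at -0.06 and Lhx6, a factor of the Sst and Pvalb lineage, at -0.33. Among 12 genes of excitatory neurons, the vesicular glutamate transporter Slc17a7 was at 0.11, Neurod6 at -1.32 and Neurod2 at 1.51, with a median of -0.15. Neuron markers in general had a median of -0.15, and all 7 were lower. Microglia markers had a median of 0.29 with AdipoRon (6 of 9 higher) and astrocyte markers 0.05. The part of these shifts in the differences of the members was not tested.

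Activity-regulated genes, a list also chosen with earlier results known, were lower in 25 of 28 cases, 13 of them by at least 1, with a median of -0.99. Nptx2 was at -3.65, the transcription factor Npas4 at -2.90, Ptgs2 at -2.86 and Egr4 at -2.82, whereas Fos was at -0.45 and Junb at 0.20. Vgf and Scg2 (-0.88) belong to this list and to the list of precursors.

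The genes nearest to Pnoc over the 4 mean levels were Egr4 (distance 0.47), Smim43 (0.47) and Dlx1as (0.49), out of 19399 genes. Egr4 had 4.64 log2 CPM with DMSO and 1.82 with AdipoRon, and Dlx1as had 4.77 and 2.59. Dlx1as is annotated antisense to the interneuron factor Dlx1, which was at -0.80, and reads of the pair cannot be told apart here because no strand setting is given in the sources used. B630019K06Rik, Tmem128 and Nol10 were nearest to Sst, at distances of 0.02 to 0.04. Distances here are over 4 means of the same 21 cultures, and describe levels only.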

How the data were processed

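RNA of 21 cultures was grouped by genotype and treatment as the sample titles give them. According to their methods, the authors trimmed the reads and used STAR (on mm10), RSEM and edgeR, while the paper's results name GRCm39 and the tables carry the name of Rsubread. Mean expression in log2 CPM is as the authors deposited it, 1 value per gene and table, and is relative to library size. The fold changes, likelihood ratios, p-values and false discovery rates of the authors' own comparisons are also in the 4 tables and were not used, nor were values per culture. How genes were filtered and libraries normalized is not given in the sources used here.

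Differences between means were computed in pandas 2.3.3, with a log2 difference of 1 as the threshold. The range of each group mean was computed from linear CPM weighted by the number of cultures, and its code was tested on simulated data. The simulation had no genotype effect and no separate normalization of the tables. Wrong calls were counted in it only for genes above a level of 1 CPM, which leaves out Grp. The genes named are the 9 members, up to 4 genes per list past the threshold, further genes of the lists and the genes nearest to Pnoc and Sst. Genes of the lists under the threshold were named after their values were seen. So were Npy2r, Oprl1, Gal and Penk, which are past the threshold but beyond the allowed 4 of their lists. The members and lists were chosen with earlier results of these data known, and the group ranges after the means had been seen. Alternatives were thresholds of 0.5 and 1.5, centring, genes in all 4 tables and a filter on low means.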

Additional observations from a re-analysis of the deposited data

How the results depend on the processing

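With AdipoRon, 4 members were past a log2 difference of 1, 7 were past 0.5, 2 (Pnoc and Grp) were past 1.5, and 2 (Pnoc and Cck) were left when both means had to be at least 0 log2 CPM. Between Tau and WT cultures 0 members were past 1 and 3 scarce ones (Nts, Cort and Grp) were past 0.5, with no test run. The share of all genes past 0.5 or 1.5, or under the filter, was not counted. Whether the member counts at these settings are unusual is therefore unknown. Centring on the median of all genes kept the counts of 4 and 0. Restriction to genes in all 4 tables could not change them. The 8 members with an AdipoRon difference are all in those tables, and leaving out Nts cannot raise a count of 0. Centring on the median of all genes, or on that of genes with a mean of at least 4 log2 CPM, moved the 17 member differences by at most 0.029. The second of these turned the Tau difference of Npy from -0.00044 to 0.012, both near 0. No other member difference changed direction under either centring. Linear CPM must give the same direction as log2 CPM, so it was no further check. For the group ranges, 2 alternatives chosen after seeing the data, equal weight for each group and 0.05 CPM taken from each mean, gave 2 members, as reported. No culture could be left out, since values per culture were not used. No paired analysis was possible because the tables hold means over cultures, although treatments shared animals, and depth per culture and the spread between cultures are unknown.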
